A study of Homo sapiens with 5 samples.

Results

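The genes of the insulin-like growth factor (IGF) system were examined in D54 glioma cells with and without silencing of TIP-1. The set held the 7 binding proteins IGFBP1 to IGFBP7, the ligand IGF1, the receptor IGF2R and the ligand-like protein IGFL1, that is 10 of the 18417 genes named in the table. For each gene the row with the highest mean signal was to be taken, but every member had only 1 row. IGFBP6 shared its row with the gene C12orf57, so that value is the signal of the row annotated to both genes. The set was chosen by the low IGFBP3 signal in shRNA 3, which was known beforehand, and the question was whether the other binding proteins share it. IGFBP3 values that include that array are therefore given as a description, without a test.

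IGFs are secreted growth factors that signal through the IGF1 receptor, a tyrosine kinase upstream of the phosphoinositide 3-kinase and AKT pathway. In body fluids and around cells most IGF is held by IGF binding proteins, which can withhold it from the receptor or carry it there, and which proteases cleave to set it free. The IGF2 receptor takes up IGF2 for breakdown in lysosomes, and glioma cells are known to make several of the binding proteins themselves.

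D54 is a cell line derived from a human glioma. TIP-1, the product of TAX1BP3, consists of little more than 1 PDZ domain, which docks onto the carboxyl ends of partner proteins. The 5 arrays comprised 2 independent clones of D54 carrying a control shRNA and 3 D54 samples carrying an shRNA against TIP-1, each a different shRNA, and no technical replicates were made. All 5 were grown in the same medium overnight before total RNA was isolated. The 3 TIP-1 arrays are called shRNA 1, shRNA 2 and shRNA 3, and each is the only array of its shRNA. In comparisons that pool the TIP-1 arrays, the p-values measure the spread between these clones and shRNAs. Those for a single shRNA, or between 2 shRNAs, rest on the spread of the 2 controls. No spread among TIP-1 arrays enters them, and a lone array is assumed to vary like the controls. In both kinds of fit, limma draws the spread of each row towards a value common to all rows. That value carries 3.15 degrees of freedom in the pooled fit and 3.41 in the other, beside 3 and 1 from the row itself.

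Values are log2 signals, on which a difference of 1 is a 2-fold change, and a difference is the TIP-1 value less the control value. The row of TAX1BP3, shared with the read-through transcript P2RX5-TAX1BP3, read 12.05 and 12.10 for the 2 controls, with 9.81, 9.61 and 9.55 for shRNAs 1, 2 and 3. This was a fall of 2.42 log2 units (SE 0.10, 5.35-fold, limma adjusted p = 0.011), and it was the only one of 33297 rows (0.00300%) past the threshold of 0.05. For IGFBP3 no test is read from that comparison, and none of the other members passed in it. The call was lost when control 1, control 2 or shRNA 2 was left out, with limma adjusted p = 0.386, 0.387 and 0.129. Array medians lay between 7.88 and 7.98. Among 10 markers of glioma and astroglial cells, the signal of VIM lay between 13.84 and 14.02, that of CD44 between 13.73 and 13.80 and that of GFAP, the astrocyte filament protein, between 7.86 and 8.14. In shRNA 3 the differences from the controls were -0.43 for SLC1A3, -0.35 for AQP4 and -0.32 for OLIG2, other markers of that list. These 3 genes, S100B and SOX2 lay below the array medians in every array, where signal cannot be told from background. GFAP and NES lay close to the medians and EGFR above them. None of the 10 passed the test, and their part in the shRNA 3 values below was not tested. The table gives no detection call, so no row could be called absent.

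The promoters of the 3 members whose signal ranged most widely over the 5 arrays are shown first, because the values below turn on these genes. Each sequence is the 250 bases before the annotated start of transcription, 5′ to 3′ on the gene's own strand, from RefSeq on GRCh38.p14. They lie at chr7:45921273-45921522 on the minus strand for IGFBP3, at chr17:40443200-40443449 on the plus strand for IGFBP4 and at chr19:46229492-46229741 on the plus strand for IGFL1. Capitals mark matches on either strand to 5 motifs. These were TATAAA, which is the usual TATA box; TATATA, which is a variant of it; GGGCGG, the GC box, shown as CCGCCC where it lies on the other strand; TGACTCA, bound by AP-1; as well as GTAAACA, bound by forkhead factors. No 2 matches overlapped in these windows.
IGFBP3: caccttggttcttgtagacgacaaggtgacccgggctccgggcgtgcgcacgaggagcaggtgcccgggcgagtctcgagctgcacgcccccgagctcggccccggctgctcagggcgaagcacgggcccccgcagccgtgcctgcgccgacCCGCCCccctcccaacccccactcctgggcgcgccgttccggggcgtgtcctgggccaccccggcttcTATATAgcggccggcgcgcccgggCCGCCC
IGFBP4: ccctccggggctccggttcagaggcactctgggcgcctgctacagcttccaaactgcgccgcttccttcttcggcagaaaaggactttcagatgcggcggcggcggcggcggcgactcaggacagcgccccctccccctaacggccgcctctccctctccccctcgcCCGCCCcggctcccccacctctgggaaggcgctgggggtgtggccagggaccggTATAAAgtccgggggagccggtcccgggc
IGFL1: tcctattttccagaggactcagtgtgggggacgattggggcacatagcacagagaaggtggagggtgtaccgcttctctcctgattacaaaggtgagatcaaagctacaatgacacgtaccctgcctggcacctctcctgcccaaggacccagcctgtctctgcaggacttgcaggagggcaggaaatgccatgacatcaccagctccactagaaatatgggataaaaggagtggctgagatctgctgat

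IGFBP3 had TATATA from 30 to 25 bases before the start and GGGCGG on the other strand at 98 to 93 and at 6 to 1 bases before it. IGFBP4 had TATAAA from 29 to 24 bases before the start and GGGCGG on the other strand at 83 to 78. None of the 5 motifs was found in the IGFL1 window. Among 35116 promoter windows of the same length, TATAAA was present in 10.7%, TATATA in 3.73%, GGGCGG in 42.6%, TGACTCA in 4.2% and GTAAACA in 2.98%. These windows leave out 1 chromosome, on which no member lies. Bases G and C made up 76.0% of the IGFBP3 window, 71.6% of the IGFBP4 window and 52.8% of the IGFL1 window. The median over the same set of windows was 58.0%. These matches describe the letters in the window, and no binding was measured.

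**Figure D1:**
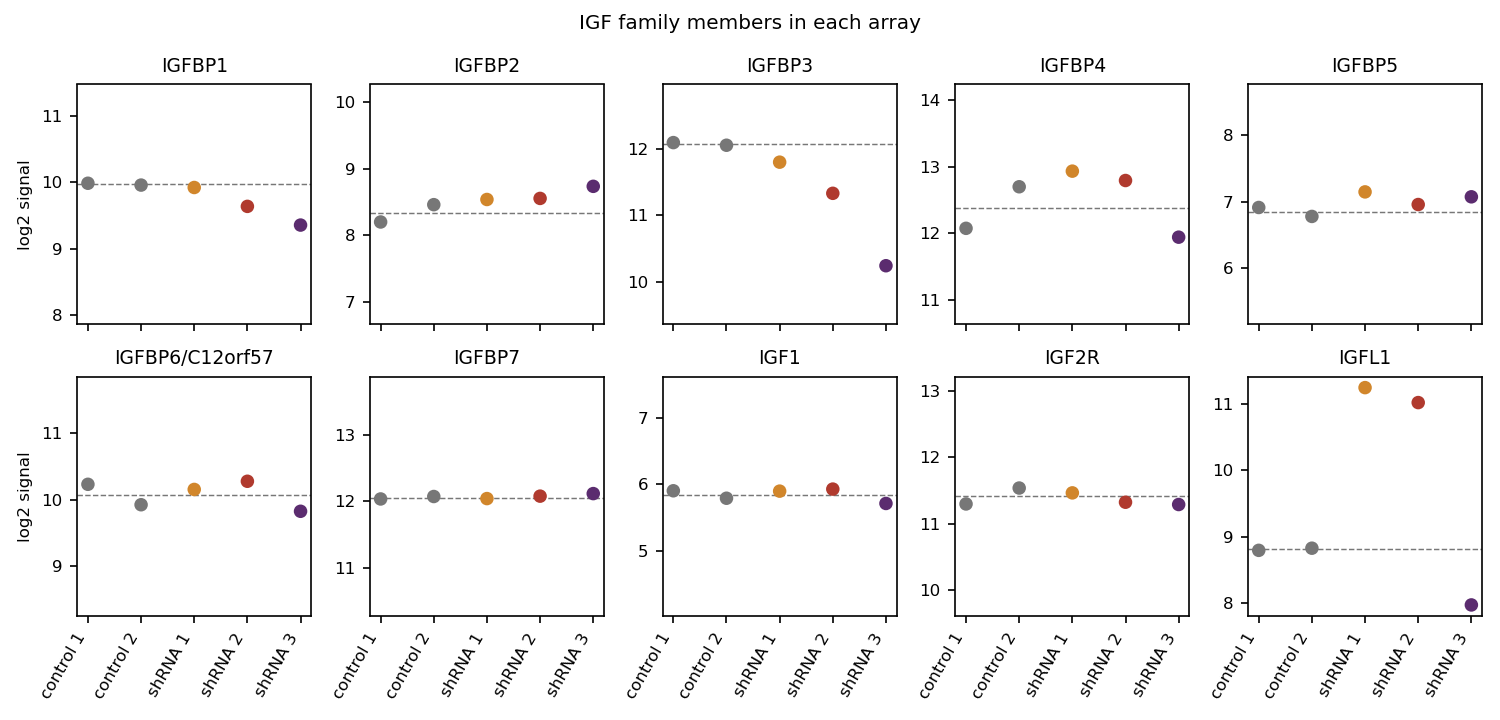
Log2 signal (y axis) of each of the 10 genes in the 5 arrays (x axis: control 1, control 2, shRNA 1, shRNA 2, shRNA 3). Each point is 1 array and the dashed line is the mean of the 2 controls; every panel spans the same number of log2 units. IGFBP3 runs from 12.09 in control 1 to 10.24 in shRNA 3, IGFL1 is high in shRNAs 1 and 2 and low in shRNA 3, and IGFBP7 stays within 0.08 log2 units.

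IGFBP3, the most abundant IGF carrier of the circulation, read 12.09 and 12.05 for the 2 controls, with 11.80, 11.33 and 10.24 for shRNAs 1, 2 and 3. All 3 TIP-1 arrays lay below both controls, and shRNA 3 stood well below the other two. The difference from the control mean (12.07 ± 0.03, SD, n = 2) amounted to -0.27, -0.74 and -1.83 for shRNAs 1, 2 and 3, or 1.21-fold, 1.67-fold and 3.56-fold lower. Among all rows, 14.5% had all 3 TIP-1 arrays below both controls and 0.258% lay at least 1 log2 unit below the control mean in shRNA 3, and since the latter measure chose the gene nothing is read from these shares. The difference of shRNA 3 from shRNA 1 was -1.56 and from shRNA 2 -1.09, while shRNA 2 differed from shRNA 1 by -0.47. The TIP-1 group mean was 11.12 ± 0.80 (SD, n = 3), a difference of -0.95 that became -0.51 without shRNA 3. In these bulk samples, fewer cells expressing a gene and less RNA per cell cannot be told apart.

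The arrays that had no part in choosing IGFBP3 gave a smaller difference. Over shRNAs 1 and 2 alone, the IGFBP3 difference was -0.51 (SE 0.17, 95% interval -0.93 to -0.08, 1.42-fold), and this did not pass the threshold (limma adjusted p = 0.55). In that fit 0.0180% of rows passed. It uses the same 2 controls as the comparison above, which also took part in choosing IGFBP3, and is no independent support for it.

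IGFBP1, a binding protein made mainly in the liver and regulated by insulin, is the gene next to IGFBP3 in the GRCh38.p14 gene table. Its signal was 9.99 and 9.96 for the 2 controls, with 9.92, 9.64 and 9.36 for shRNAs 1, 2 and 3. All 3 TIP-1 arrays were below both controls, in the same order as for IGFBP3, an order found in 5.51% of all rows. The difference in shRNA 3 was -0.62 (95% interval -0.95 to -0.28, 1.53-fold), with -0.33 in shRNA 2 and -0.05 in shRNA 1. None of these passed the test (limma adjusted p = 0.382 in shRNA 3). With limma, 0% of rows passed in any single shRNA or between shRNAs, and 1168, 2013 and 3834 rows had an unadjusted p under 0.05 in shRNAs 1, 2 and 3. TAX1BP3, the silenced gene, was at -2.27, -2.47 and -2.52 in shRNAs 1, 2 and 3 and did not pass in these fits either. A test of a single shRNA therefore says little about smaller differences. For the group the IGFBP1 difference was -0.33 (SE 0.17, 95% interval -0.74 to 0.07, limma adjusted p = 0.713).

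IGFBP4, which binds IGFs outside cells and is cleaved by the protease PAPPA, read 12.08 and 12.70 for the 2 controls, with 12.94, 12.80 and 11.94 for shRNAs 1, 2 and 3. shRNAs 1 and 2 were above both controls and shRNA 3 was below both, but the controls themselves lay 0.63 apart. The difference in shRNA 3 was -0.45 (95% interval -1.21 to 0.32, 1.36-fold lower, limma adjusted p = 0.552), against 0.55 in shRNA 1 and 0.41 in shRNA 2. It depended on the control used, at -0.76 without control 1 and -0.13 without control 2. The difference of shRNA 3 from shRNA 1 was -0.99 (95% interval -1.88 to -0.11, limma adjusted p = 0.561) and that from shRNA 2 was -0.85 (limma adjusted p = 0.692). Over all 3 shRNAs the difference was 0.17 (SE 0.33, 95% interval -0.64 to 0.98, limma adjusted p = 0.906), and it turned to -0.14 without control 1 and to -0.02 without shRNA 1.

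IGFBP6 is a binding protein with a preference for IGF2. The row annotated to it and to C12orf57 read 10.24 and 9.93 for the 2 controls, with 10.16, 10.28 and 9.83 for shRNAs 1, 2 and 3. shRNA 3 was below both controls and shRNA 2 above both, with shRNA 1 between them. The difference in shRNA 3 was -0.25 (95% interval -0.73 to 0.22, limma adjusted p = 0.58), and over the group it was 0.01 (SE 0.16, 95% interval -0.39 to 0.41, limma adjusted p = 0.993). With each array centred on its median, shRNA 3 lay between the controls. Signal from the 2 genes of this row cannot be told apart.

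IGFBP2, a binding protein well studied in glioma, and IGFBP5, which binds to extracellular matrix, are neighbours in the gene table and lay on the opposite side. IGFBP2 read 8.20 and 8.46 for the 2 controls, with 8.54, 8.55 and 8.73 for shRNAs 1, 2 and 3. IGFBP5 read 6.92 and 6.78 in the controls and 7.15, 6.96 and 7.08 in the 3 shRNAs. The IGFBP5 signal lay below the array medians of 7.88 to 7.98, and without a detection call it cannot be told from background. For both genes all 3 TIP-1 arrays lay above both controls, as in 11.6% of all rows, and this held after quantile normalization and after centring on the median. The IGFBP2 difference was 0.28 (SE 0.12, 95% interval -0.01 to 0.56, 1.21-fold, limma adjusted p = 0.707), and it was 0.15 without control 1 and 0.41 without control 2. For IGFBP5 it was 0.21 (SE 0.10, 95% interval -0.02 to 0.45, 1.16-fold, limma adjusted p = 0.707). In shRNA 3 alone the differences were 0.41 for IGFBP2 (95% interval -0.03 to 0.85, limma adjusted p = 0.448) and 0.23 for IGFBP5 (95% interval -0.14 to 0.59, limma adjusted p = 0.53).

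IGFBP7, a relative that binds IGFs weakly and is found in matrix and around vessels, was the steadiest member. Its signal was 12.04 and 12.07 for the 2 controls, with 12.04, 12.08 and 12.12 for shRNAs 1, 2 and 3, a range of 0.08 that 32790 of 33297 rows exceeded. The group difference was 0.02 (SE 0.08, 95% interval -0.17 to 0.22, limma adjusted p = 0.947). In shRNA 3 it was 0.06 (95% interval -0.27 to 0.40, limma adjusted p = 0.851).

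The 6 binding proteins other than IGFBP3 did not lie on 1 side of the controls. In shRNA 3, 3 of them were below both controls (IGFBP1, IGFBP4 and the IGFBP6 row) and 3 above both (IGFBP2, IGFBP5 and IGFBP7), where 43.4% of all rows were below both and 32.6% above both. None of the 6 was 1 log2 unit or more below the control mean. Their differences ran from -0.62 to 0.41 with a median of -0.09, against -0.02 over all genes. Leaving out the shared IGFBP6 row, a choice made after the data were seen, or centring each array on its median reduced the 3 below both controls to 2.

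In shRNA 1, 1 of the 6 was below both controls and 3 were above both, with a median difference of 0.14 and a range from -0.05 to 0.55. Of all rows, 31.7% were below both and 30.9% above both in that array. In shRNA 2, 1 was below both and 5 were above both, with a median of 0.16 and a range from -0.33 to 0.41, where the shares of all rows were 37.0% and 32.3%. The 1 binding protein below both controls was IGFBP1 in either array. The side of IGFBP7 in these 2 arrays changed with the scaling, since quantile normalization put it below both controls in shRNA 1 and between them in shRNA 2, and centring put it above both in each.

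**Figure D2:**
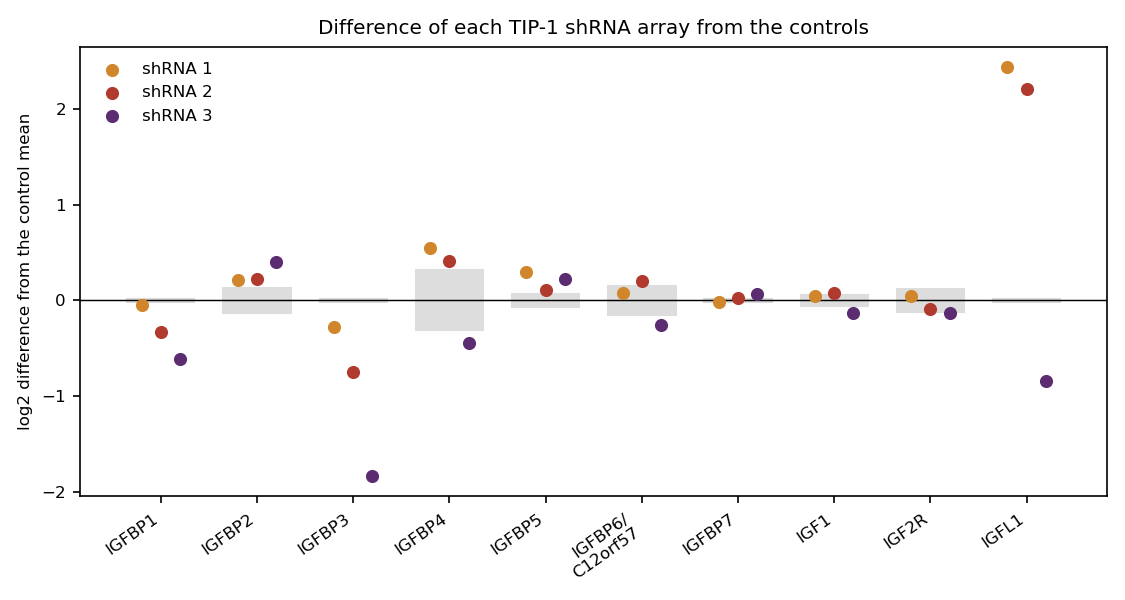
Log2 difference from the mean of the 2 controls (y axis) for each gene (x axis), with 1 point for each of shRNAs 1, 2 and 3; the grey bars span the 2 controls. In shRNA 3 IGFBP3 lies at -1.83, the other 6 binding proteins lie between -0.62 and 0.41, and IGFL1 lies at -0.84 after 2.43 and 2.21 in shRNAs 1 and 2.

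IGFL1 belongs to a small family of secreted proteins that resemble IGFs in structure. It is the only member of that family in the set, and since its values may have helped to choose it, the tests below are no independent support. Its signal was 8.79 and 8.82 for the 2 controls, with 11.24, 11.02 and 7.97 for shRNAs 1, 2 and 3. shRNAs 1 and 2 were far above both controls and shRNA 3 was below both. Of the members, IGFBP4 and IGFL1 had this arrangement, which 4.59% of all rows had. With the IGFBP6 row and IGF1, 4 of the 10 had at least 1 of shRNAs 1 and 2 above both controls and shRNA 3 below both, as did 14.0% of all rows. The IGF1 signal among these, between 5.71 and 5.93, lay below every array median. The IGFL1 range of 3.27 log2 units was exceeded by 11 of 33297 rows.

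The difference from the controls (8.81 ± 0.02, SD, n = 2) was 2.43 in shRNA 1 (95% interval 2.10 to 2.77, 5.39-fold), 2.21 in shRNA 2 (95% interval 1.87 to 2.54, 4.62-fold) and -0.84 in shRNA 3 (95% interval -1.17 to -0.50, 1.79-fold lower). In the fit with each shRNA on its own, none of the 3 passed the threshold (limma adjusted p = 0.302, 0.242 and 0.325). Nor did the difference of shRNA 3 from shRNA 1 (-3.27, 9.64-fold, limma adjusted p = 0.294) or from shRNA 2 (-3.04, 8.25-fold, limma adjusted p = 0.273). At least 1 log2 unit above the control mean in both shRNAs 1 and 2 and below both controls in shRNA 3 were 9 rows, or 0.0270%.

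As a group the TIP-1 arrays averaged 10.08 ± 1.83 (SD, n = 3), a difference of 1.27 (SE 0.95, 95% interval -1.05 to 3.59, limma adjusted p = 0.762). Without shRNA 3 the difference was 2.32 (SE 0.11, 95% interval 2.05 to 2.59, 4.99-fold), and IGFL1 was then 1 of 6 rows past the threshold (limma adjusted p = 0.0315). It was 0.68 without shRNA 1 and 0.80 without shRNA 2.

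The other members of that family did not share this pattern of signals. IGFL2 read 7.02 and 7.04 for the 2 controls, with 7.18, 7.02 and 7.04 for shRNAs 1, 2 and 3, which is close to level. IGFL3 read 6.89 and 6.67 against 6.84, 6.99 and 6.84, and IGFL4 read 7.07 and 7.04 against 6.81, 7.03 and 6.91. The group differences were 0.05, 0.11 and -0.14, and none passed (limma adjusted p = 0.897, 0.808 and 0.751). No test compared these genes with IGFL1. IGFL2, IGFL3 and IGFL4 lay below the array medians of 7.88 to 7.98. Without a detection call, a level signal there cannot be told from background.

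IGF1, the main ligand of the IGF1 receptor, read 5.91 and 5.79 for the 2 controls, with 5.90, 5.93 and 5.71 for shRNAs 1, 2 and 3. shRNA 3 was below both controls and shRNA 2 above both, all within 0.22 log2 units. The IGF1 signal lay below the array medians of 7.88 to 7.98, and without a detection call it cannot be told from background. The group difference had an interval from -0.25 to 0.25 (limma adjusted p = 0.999), and its sign turned under either rescaling of the arrays. IGF2 and insulin were measured only together, on a row annotated to IGF2, INS and INS-IGF2. That row read 8.10 and 8.18 in the controls and between 7.98 and 8.17 in the 3 shRNAs, a difference of -0.09 (95% interval -0.32 to 0.14, limma adjusted p = 0.821).

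IGF2R, which carries IGF2 and lysosomal enzymes into the cell, read 11.30 and 11.54 for the 2 controls, with 11.46, 11.32 and 11.29 for shRNAs 1, 2 and 3. shRNA 3 was just below both controls and the other two lay between them. The difference was -0.06 (SE 0.11, 95% interval -0.33 to 0.21, limma adjusted p = 0.901). It lay at 0.00 after centring each array on its median.

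IGF1R, the signalling receptor for IGF1 and IGF2, was measured by 2 rows. The brighter read 9.32 and 9.82 for the 2 controls, with 9.77, 9.86 and 10.02 for shRNAs 1, 2 and 3, and the other read 7.77 and 8.36 against 8.23, 8.14 and 8.46. The controls differed from each other by more than the group means on both rows. The differences were 0.31 (SE 0.17, limma adjusted p = 0.713) and 0.21 (SE 0.19, limma adjusted p = 0.79). INSR, the insulin receptor, read 8.25 and 8.50 in the controls and 8.52, 8.57 and 8.67 in the 3 shRNAs, above both controls in each, with a difference of 0.21 (limma adjusted p = 0.713).

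Beyond the members, 102 genes of the IGF system were listed in 8 groups by role, and 93 had a row with their symbol alone, among them IGF1, IGF2R and IGFL1. None of the 93 passed the threshold in the comparison of TIP-1 shRNA with control, where 0.00300% of all rows passed. With limma, 5 of the 90 that are not members had an unadjusted p under 0.05, as did 2315 of all 33297 rows. Of these 90, 37 differences were positive and 53 negative, with a median of -0.03 against -0.01 over all genes. In 10 of them all 3 TIP-1 arrays lay above both controls and in 13 all 3 lay below. The shares over all rows were 11.6% and 14.5%, so these counts over all lists together are near the background. Of the 10 above both controls, 6 were in the list of the AKT pathway.

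**Figure D3:**
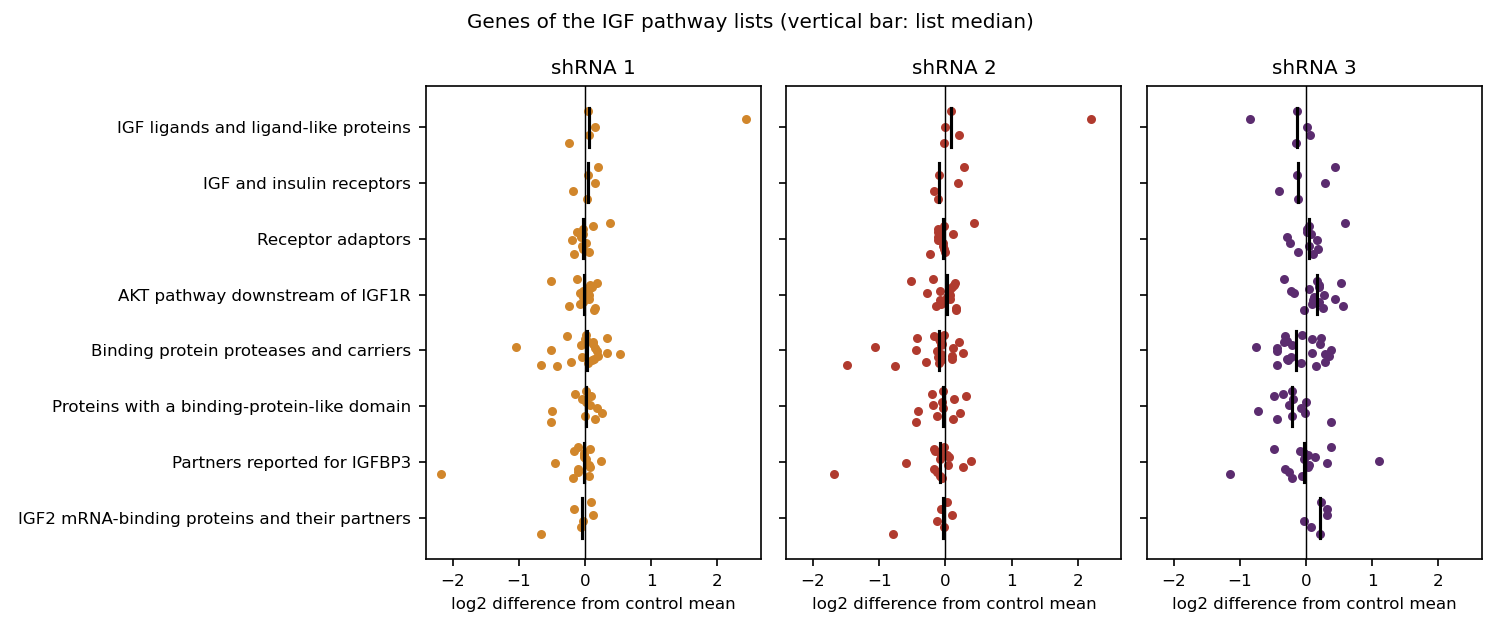
Log2 difference from the control mean (x axis) of every measured gene in the 8 lists of the IGF system (y axis) in shRNAs 1, 2 and 3 (panels from left to right). Each point is 1 gene, IGF1, IGF2R and IGFL1 included, and the vertical bars are list medians. The list medians stay between -0.21 and 0.22 in shRNA 3, and the point far to the right in shRNAs 1 and 2 is IGFL1.

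Among the 22 measured proteases and carriers of the binding proteins, 6 differences were positive and 16 negative. Their median was -0.06, against -0.01 over all genes. C1S, a complement protease that can cleave IGFBP5, read 9.58 and 9.31 for the 2 controls, with 8.79, 7.96 and 9.01 for shRNAs 1, 2 and 3, all below both controls. Its difference was -0.86 (SE 0.31, 95% interval -1.61 to -0.11, limma adjusted p = 0.707). PAPPA, the protease that cleaves IGFBP4, had a difference of -0.02 (limma adjusted p = 0.961), and IGFALS, the subunit that joins IGFBP3 and IGF in their circulating complex, one of -0.11 (limma adjusted p = 0.815). The PAPPA signal, between 6.77 and 6.97, lay below the array medians and cannot be told from background. PAPPA and IGFALS were chosen for their roles after their values were seen.

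The 12 proteins with a domain like that of the binding proteins included 2 positive and 10 negative differences. Their median was -0.06 over the group and -0.21 in shRNA 3, against -0.01 and -0.02 over all genes. HTRA1 and HTRA3 among them are also in the list of proteases and carriers. ESM1, a secreted proteoglycan known from endothelium, read 6.51 and 6.97 in the controls and 6.24, 6.32 and 6.02 in the 3 shRNAs. All 3 were below both controls, at -0.55 (SE 0.16, limma adjusted p = 0.707). The ESM1 signal lay below the array medians and cannot be told from background. Among 16 proteins reported to bind or act with IGFBP3, 6 differences were positive and 10 negative, with a median of -0.04.

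FN1 and VDR, both among those partners, were the only listed genes at least 1 log2 unit from the control mean in shRNA 3. FN1, the matrix protein fibronectin, read 9.16 and 10.60 for the 2 controls, with 7.71, 8.20 and 8.73 for shRNAs 1, 2 and 3. All 3 TIP-1 arrays lay below both controls, as in 14.5% of all rows. The FN1 group difference was -1.67 (SE 0.46, 95% interval -2.80 to -0.54, limma adjusted p = 0.707), with the smallest unadjusted p of its list. The controls were far apart, and shRNA 3 was the nearest to them, at -1.15 (95% interval -2.77 to 0.46, limma adjusted p = 0.5). VDR, the vitamin D receptor, read 7.79 and 7.57 in the controls and 7.93, 8.07 and 8.78 in the 3 shRNAs. Its shRNA 3 value was the highest, with a difference of 1.10, a size reached by 0.484% of all rows in that direction (95% interval 0.69 to 1.51, limma adjusted p = 0.317).

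Downstream of the receptor, IRS1, the docking protein that links the IGF1 and insulin receptors to phosphoinositide 3-kinase, had the smallest unadjusted p of 12 adaptors. It read 8.46 and 8.03 for the 2 controls, with 8.63, 8.67 and 8.84 for shRNAs 1, 2 and 3, all above both controls. The difference was 0.47 (SE 0.15, 95% interval 0.11 to 0.83, 1.38-fold, limma adjusted p = 0.707). Of the 12 adaptors, 4 differences were positive and 8 negative, with a median of -0.03 against -0.01 over all genes.

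In the AKT pathway 12 of 17 differences were positive and 5 negative, with a median of 0.06 against -0.01 over all genes. All 3 TIP-1 arrays lay above both controls in 6 of the 17 and below both in 3, against 11.6% and 14.5% of all rows. Without shRNA 3 the median of the list was -0.0016, and the list as a whole was not tested. PIK3CB, a catalytic subunit of phosphoinositide 3-kinase, was on the negative side, with 10.47 and 10.49 in the controls and 10.36, 10.30 and 10.15 in the 3 shRNAs (difference -0.21, SE 0.10, limma adjusted p = 0.707). INSRR, a receptor related to the insulin receptor, had the smallest unadjusted p of the 5 receptors, at -0.25 (SE 0.11, limma adjusted p = 0.707), although the IGF1R difference was larger in size. The INSRR signal, between 7.11 and 7.61, lay below the array medians and cannot be told from background. Of 6 measured genes around the IGF2 mRNA-binding proteins, IGF2BP3 had the smallest unadjusted p, at 0.18 (SE 0.12, limma adjusted p = 0.73), and 3 differences were positive and 3 negative. The widest difference there was -0.41 for HMGA1, a chromatin protein, whose signal was 11.06 and 11.04 for the controls, 10.39 and 10.26 for shRNAs 1 and 2 and 11.26 for shRNA 3. None of these genes passed the test in either direction.

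The genes most like IGFBP3 over the 5 arrays were found by the root mean square distance between array profiles, each centred on its own mean. Out of 18416 genes the 5 nearest were PLOD2 (0.222 log2 units), ADAMTSL1 (0.238), GDPD3 (0.280), COL6A3 (0.323) and LRRC8C (0.330). PLOD2, a lysyl hydroxylase that modifies collagen, read 12.19 and 11.55 for the 2 controls, with 11.74, 11.29 and 10.34 for shRNAs 1, 2 and 3. COL6A3, a chain of collagen VI, read 10.44 and 10.09 in the controls and 10.16, 10.32 and 8.89 in the 3 shRNAs. Each of the 5 had its lowest value in shRNA 3, with differences from the controls between -1.55 and -1.12. Since they were picked for nearness to IGFBP3, which is itself lowest in shRNA 3, nothing is read from this.

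Of the members, IGFBP1 was the nearest to IGFBP3 at 0.450, which ranked 54 among the 18416 genes. IGFL1, at 1.28, ranked 18375. These distances describe 5 arrays that share culture and processing, and no test was made of them.

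**Figure D4:**
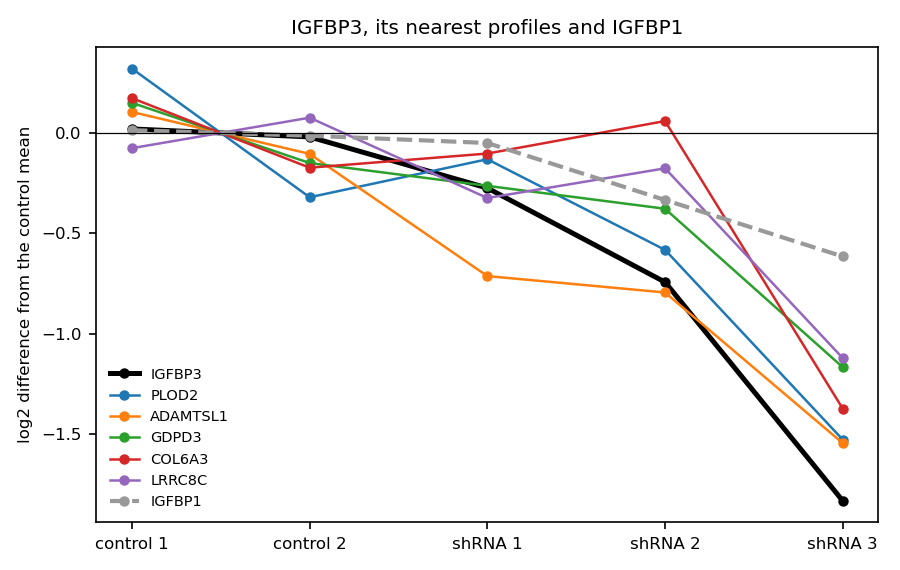
Log2 difference from the control mean (y axis) in the 5 arrays (x axis) for IGFBP3, the 5 genes with the nearest profile and IGFBP1 (dashed). The lines join single arrays of 1 gene. All 5 neighbours in profile were picked for nearness to IGFBP3 and, like it, have their lowest point in shRNA 3. IGFBP1 reaches -0.62 there against -1.83 for IGFBP3.

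Markers of other cell types were set beside the values of shRNA 3. Of 37 measured markers in 6 lists none passed the test, and 2 differed by at least 1 log2 unit in shRNA 3. PDGFRB, 1 of 6 fibroblast markers, read 8.59 and 8.56 for the 2 controls, with 8.67, 8.85 and 9.71 for shRNAs 1, 2 and 3. The other fibroblast markers lay on both sides in shRNA 3. COL1A2 and LUM were at 0.27 and 0.71, and COL1A1, COL3A1 and DCN at -0.13, -0.23 and -0.05. The median of the fibroblast list was 8.23 and 8.28 in the controls and 8.28 in shRNA 3. PTPRC, 1 of 4 measured blood cell markers, read 8.65 and 7.32 in the controls and 8.39, 7.75 and 6.84 in the 3 shRNAs. The log2 of the summed fibroblast signal was 11.03 to 11.44 in the controls and 11.57 in shRNA 3, and that of the blood cell markers was 9.26 to 9.76 and 9.02. Their part in the IGFBP3 and IGFL1 values was not tested.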

How the data were processed

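Total RNA of 5 D54 samples was measured on Affymetrix whole-transcript arrays, 1 array per sample. The authors deposited log2 signals, made with the Affymetrix Exon Array Computational Tool per the series' design text. The tool's version, its background correction and how arrays were normalized were not stated there. That text gives the exon version of the array, but row identifiers matched annotation of the gene-level version, which can be old. Of 33297 rows, 19460 had 1 gene symbol, 1754 several and 12083 none.

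Values were used as deposited. Differences were fitted over all rows by lmFit and eBayes of limma 3.58.1 under R 4.3.3 (two-sided, Benjamini-Hochberg over all rows, threshold 0.05, 95% intervals): the 3 TIP-1 arrays against the 2 controls, and each shRNA against the controls, where the spread comes from the 2 controls and a lone array is assumed to vary like them. An exact permutation test of 2 against 3 arrays cannot go below p = 0.1, so none was used. The number of arrays limits the precision. On simulated data the group fit recovered 1.2% of changes of 0.5 log2 units and 73.2% of changes of 1. The fit of shRNA 3 recovered 0.4% of changes of 1 and 84.8% of changes of 2. Not passing therefore says little about small differences. In the real data the fit of shRNA 3 called no row, TAX1BP3 included, so the simulated shares need not hold there.

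The members, lists and tests were chosen with earlier results of these data known. Genes named were the silenced gene, the members, the gene of each list with the smallest unadjusted p, listed genes at least 1 log2 unit from the controls in shRNA 3, the 5 nearest profiles and the chromosomal neighbours of 4 members; others were named for their role after their values were seen. Of the members, 8 had a RefSeq promoter (11 windows). The motifs were chosen after the sequences were seen. Alternatives were quantile normalization, centring each array on its median, only rows above the median row, a trended robust variance, array weights, a replicate block, the mean of a gene's rows, and each array left out. Replicate numbers did not pair the arrays.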

Additional observations from a re-analysis of the deposited data

Results flagged for a closer look

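For 4 of 10 members at least 1 of shRNAs 1 and 2 lay above both controls while shRNA 3 lay below both, an arrangement found in 14.0% of all rows, and in no case did the difference between the shRNAs pass limma's test over all rows. For IGFL1, shRNA 3 differed by -3.27 from shRNA 1 (limma adjusted p = 0.294) and by -3.04 from shRNA 2 (limma adjusted p = 0.273). For IGFBP4, the differences were -0.99 from shRNA 1 (limma adjusted p = 0.561) and -0.85 from shRNA 2 (limma adjusted p = 0.692). The row of IGFBP6 and C12orf57 differed by -0.45 between shRNA 3 and shRNA 2 (limma adjusted p = 0.74), and IGF1 differed by -0.22 between the same arrays (limma adjusted p = 0.833). Centring each array on its median put shRNA 3 between the controls for the IGFBP6 row and for IGF1. The IGF1 signal also lay below the array medians, where it cannot be told from background. Each shRNA is 1 array, so an effect of the shRNA and a difference between single samples cannot be told apart.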

How the results depend on the processing

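The number of rows past the threshold, 1 with the values as deposited, was 15 with a replicate block, 2 with array weights and between 0 and 6 over the fits that drop 1 array (0 if it is control 1, control 2 or shRNA 2, and 6 if it is shRNA 3). The replicate numbers name separate clones and shRNAs and share only a number (correlations of deviations 0.049 and -0.053). With the block, IGFL1 was at 2.32 (limma adjusted p = 0.0165), the value without shRNA 3, which has no control of its number. Array weights gave shRNA 3 the lowest weight, 0.405.

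IGFBP3 in shRNA 3 was at -1.89 after quantile normalization, at -1.74 after centring on the median and between -1.85 and -1.81 without a control. Group differences that turned in sign were IGFBP4 from -0.14 to 0.48, the IGFBP6 row from -0.15 to 0.16, IGF1 from -0.057 to 0.066 and IGF2R from -0.18 to 0.061 with 1 array left out. IGF1 was 0.066 with the block, 0.060 after centring, 0.026 after quantile normalization and 0.053 with weights, IGF2R was 0.0027 after centring and the IGFBP6 row was -0.017 after quantile normalization. In shRNA 1, leaving out a control gave -0.077 to 0.23 for the IGFBP6 row, -0.031 to 0.0057 for IGFBP7 (0.011 after centring), -0.0054 to 0.11 for IGF1 and -0.073 to 0.17 for IGF2R. In shRNA 2 it gave -0.21 to 0.026 for IGF2R, and IGFBP7 was -0.018 after quantile normalization.

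With bright rows only, the ligand list kept 1 of 5 genes, so its value of 1.27 is that of IGFL1, and the receptor list kept 4 of 5, with a median of 0.077. List medians moved to 0.032 for the adaptors and 0.025 for the IGFBP3 partners after centring. With 1 array left out they ran from -0.12 to 0.061 for the receptors, -0.056 to 0.062 for the adaptors and -0.079 to -0.013 for the partners. The cause of the other moves was not tested. Without a control, or with a block, the fit of each shRNA has no residual degrees of freedom and gives no test.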

Other observations

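The genes beside IGFBP1 and IGFBP3 on the chromosome, in the GRCh38.p14 gene table, gave these values. ADCY1, an adenylate cyclase on the IGFBP1 side, read 7.99 and 8.09 for the 2 controls, with 8.05, 7.86 and 7.74 for shRNAs 1, 2 and 3, with a difference of -0.30 in shRNA 3 (limma adjusted p = 0.462). TNS3, a focal adhesion protein on the IGFBP3 side, read 10.55 and 10.24 in the controls and 10.27, 10.15 and 11.19 in the 3 shRNAs. Its shRNA 3 value lay above both controls, on the other side from IGFBP3, at 0.79 (95% interval 0.31 to 1.27, 1.73-fold, limma adjusted p = 0.393). There were 11 genes without a row of their own between ADCY1 and IGFBP1, and 17 between IGFBP3 and TNS3.

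The nearest genes with a row on the outer sides of IGFBP2 and IGFBP5 each lay beyond 7 genes without one. RPL37A, a ribosomal protein, differed by -0.04 over the 3 shRNAs (limma adjusted p = 0.903) and TNP1, a chromatin protein of sperm, by -0.14 (limma adjusted p = 0.762). Neither had all 3 TIP-1 arrays above both controls, as IGFBP2 and IGFBP5 had.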
